A study of Mus musculus with 6 samples.

Results

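The insulin-like growth factor (IGF) family was followed in freshly sorted mammary luminal epithelial cells, as 10 genes: the ligands Igf1 and Igf2, the receptors Igf1r and Igf2r, and the binding proteins Igfbp2, Igfbp3, Igfbp4, Igfbp5, Igfbp6 and Igfbp7. Their members were all probe sets, groups of probes read as 1 value, that the array's annotation assigned to exactly 1 of these genes. These were 28 of 45101 probe sets. Whether their probes also match other sequences was not analysed. One further probe set, shared by Igf2r and a second gene, was left out. The mutant mice were 3 MMTV-Cre;Runx1L/L;R26Y females (Runx1-null), in which exon 4 of both Runx1 alleles is floxed for removal by Cre. The controls were 3 MMTV-Cre;Runx1+/+;R26Y females (Runx1-WT). All were adult virgins on a mixed B6/129/FVB background and carried both the MMTV-Cre transgene and R26Y, a reporter allele that turns on YFP in cells where Cre has acted. Cre was driven by the MMTV promoter, which marks only a fraction of the mammary epithelium and is also active in some blood cells. The sorted cells are therefore the YFP+ luminal fraction (Lin−CD24+CD29lo) and not all luminal cells. By RT-PCR, the paper found Runx1 lost in YFP+ epithelial cells of such mutants but only slightly reduced in their YFP+ mature luminal cells. It proposes that many of the latter might have escaped deletion of at least 1 allele. Runx1-null here names the genotype of the mice and does not mean that every sorted cell had lost Runx1. RNA of each mouse was amplified and hybridized to 1 Affymetrix array, and the deposited values are linear intensities after dChip normalization by the authors.

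IGF1 and IGF2 are secreted growth factors that signal through IGF1R, a receptor tyrosine kinase that recruits the IRS adaptors and activates PI3K and AKT. IGF2R, also known as the cation-independent mannose 6-phosphate receptor, carries no kinase, takes up IGF2 for degradation in lysosomes and sorts lysosomal enzymes. The IGFBPs bind the ligands outside the cell and either hold them back from the receptor or deliver them. In the mammary gland, IGF1 made by the stroma supports ductal growth and IGFBP5 is known for its rise during involution.

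Median intensity of the arrays ran from 106 to 148 in Runx1-null mice and from 129 to 163 in Runx1-WT mice. Gapdh was brighter at its 3' than at its 5' control probes, a measure of RNA integrity and amplification. The log2 difference was 0.47 to 0.61 in Runx1-null and 0.46 to 0.47 in Runx1-WT mice. For actin it was 0.52, 0.44 and 0.74 in Runx1-null mice 1 to 3, against 0.51, 0.52 and 0.50 in Runx1-WT mice 1 to 3. Runx1-null mouse 3 had the highest value for both genes and also the lowest median intensity. The luminal keratin gene Krt8 was at 11369 to 12535 in Runx1-null and 10459 to 11487 in Runx1-WT mice, and Epcam, an epithelial adhesion gene, at 9557 to 10667 in Runx1-null and 9411 to 9843 in Runx1-WT mice, so both were high on every array. The 6 probe sets of Runx1 itself overlapped between the genotypes, with log2 differences between -0.19 and 0.26. Their position relative to exon 4 was not analysed, and they therefore check nothing about the deletion. The methods describe littermates, but the labels do not say which mice shared a litter. Animal numbers fall into a lower range (Runx1-null mice 1 and 2, Runx1-WT mice 1 and 2) and an upper range (mouse 3 of each genotype). The values of each range are given beside the pooled ones for the family genes. For other genes and markers they are given only where the text says so.

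The IGF family was mostly at lower mean levels in Runx1-null luminal cells, but no member passed the test. Values under 19.3, the 20th percentile of all values, were set to it, log2 was taken, and the 27061 probe sets with a mean intensity of at least 73.5 were tested with limma over the whole table. Of the 28 member probe sets, 23 from 9 genes passed this filter. The 5 that did not were the single Igfbp2 probe set, 2 of Igf1r, 1 of Igf1 and 1 of Igf2. Limma called 0 of the 23 at an adjusted p under 0.05, against 0% of all tested probe sets, and 0 of the 23 had an unadjusted p under 0.05, against 1.33% (360) of all. The log2 difference, Runx1-null minus Runx1-WT throughout, was below 0 for 20 members and above 0 for 3, where 59.2% of all tested probe sets were below 0. The median was -0.26 for the members and -0.04 for all tested probe sets, and it was -0.26 over all 28 members as well. Several probe sets report the same transcript in the same mice, so 20 of 23 are not 20 separate observations. Non-overlapping groups were seen for 2 of the 23 tested members, both probe sets of Igfbp4 and both lower in Runx1-null mice. Over all tested probe sets this held for 4.84%, and for 3.06% in the lower direction.

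**Figure D1:**
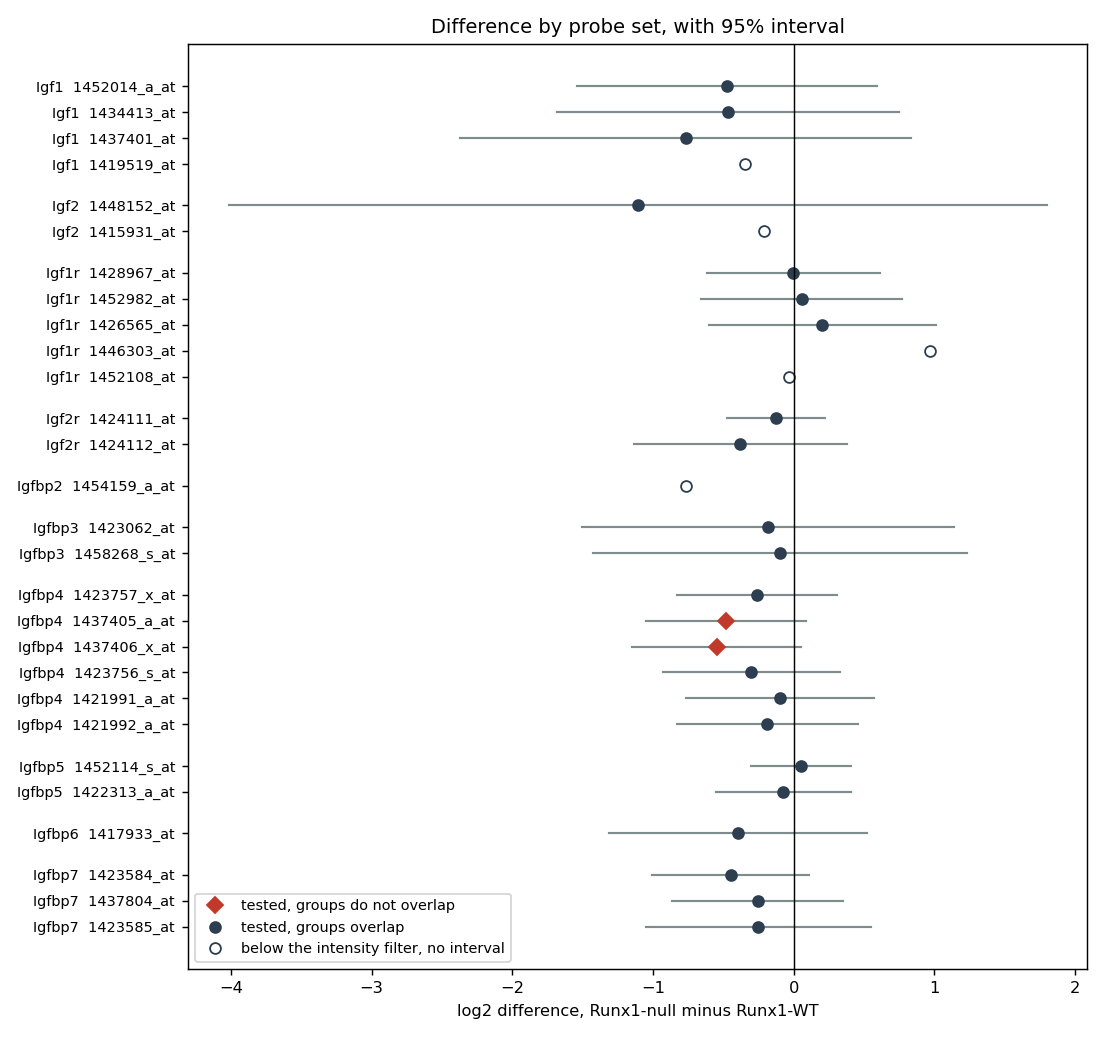
Log2 difference (Runx1-null minus Runx1-WT, horizontal axis) of each of the 28 member probe sets, by gene, with limma's 95% interval for the 23 that were tested (filled) and none for the 5 below the intensity filter (open). Every interval includes 0, and the 2 diamonds mark the Igfbp4 probe sets whose groups do not overlap.

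Among the ligands, Igf2 was set apart by a single mouse. Its brighter probe set, 1448152_at, was at 243, 68.7 and 76.3 in Runx1-null mice 1 to 3, against 136, 58.9 and 1606 in Runx1-WT mice 1 to 3. Runx1-WT mouse 3 stood far above the other 5 mice, which overlapped. The log2 difference of -1.11 (standard error 1.22, 95% interval -4.02 to 1.80) was 0.28 without that mouse. The other Igf2 probe set was below the floor of 19.3 in 5 mice and at 29.9 in Runx1-WT mouse 3, its highest value. An exact two-sided permutation test over the mice gave p = 0.7 for the brighter probe set, where 0.1 is the smallest p that 3 mice against 3 allow.

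Igf1 was dim on all 4 of its probe sets. On the brightest, 1452014_a_at, it was at 108, 187 and 94.8 in Runx1-null mice, against 155, 115 and 290 in Runx1-WT mice. The genotypes overlapped, with Runx1-WT mouse 3 highest and Runx1-null mouse 2 next, an order that the other 3 Igf1 probe sets shared. The log2 difference was -0.48 (standard error 0.45, 95% interval -1.54 to 0.59; exact permutation test, p = 0.4), and it ran from -0.77 to -0.34 over the 4 probe sets. On the brightest probe set, leaving out mouse 3 gave -0.28 (Runx1-null) or -0.10 (Runx1-WT), and leaving out mouse 2 of either genotype gave -0.77.

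The signalling receptor Igf1r did not separate the genotypes. On its brightest probe set, 1428967_at, it was at 1856, 2614 and 1667 in Runx1-null mice, against 2626, 1526 and 2031 in Runx1-WT mice. The highest mice of both genotypes were alike and the ranges overlapped almost wholly. The interval of the log2 difference ran from -0.62 to 0.61 (exact permutation test, p = 0.9), so a change of up to about 0.6 on the log2 scale in either direction could not be told from none. The other tested Igf1r probe sets gave 0.06 and 0.20. A dim one below the filter, 1446303_at, was at 203, 93.8 and 14.2 in Runx1-null mice, against 73.1, 27.4 and 24.6 in Runx1-WT mice, and disagreed with the rest by its spread among Runx1-null mice.

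Igf2r was nearly constant across Runx1-null mice and uneven across Runx1-WT mice. On 1424111_at it was at 4531, 4584 and 4451 in Runx1-null mice, against 5489, 5610 and 3897 in Runx1-WT mice. On 1424112_at the values were 442, 519 and 497 in Runx1-null mice, against 794, 797 and 396 in Runx1-WT mice. On both, Runx1-WT mice 1 and 2 lay above all Runx1-null mice and Runx1-WT mouse 3 lay below them. The log2 differences were -0.13 (standard error 0.15, 95% interval -0.48 to 0.22) and -0.38 (standard error 0.32, 95% interval -1.14 to 0.38), with an exact permutation p = 0.4 for each. With Runx1-WT mouse 3 left out they were -0.30 and -0.71. With Runx1-WT mouse 1 left out they were -0.049 and -0.21, and with Runx1-WT mouse 2 left out -0.033 and -0.21. Within the lower range of animal numbers they were -0.28 and -0.73 (limma adjusted p = 0.382 and 0.379, where unadjusted p were 0.0167 and 0.0157), and between the 2 mice of the upper range they were 0.19 and 0.33. In the lower range 3072 of all 27061 probe sets had an unadjusted p under 0.05 and 0 an adjusted one, so these values do not stand out from that comparison.

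Igfbp4, which encodes a binding protein known to restrain IGF signalling until it is cleaved by the protease PAPP-A, had lower mean levels in Runx1-null cells on all 6 of its probe sets. On 1437406_x_at it was at 181, 249 and 244 in Runx1-null mice, against 304, 290 and 390 in Runx1-WT mice. On 1437405_a_at it was at 218, 287 and 292 in Runx1-null mice, against 336, 342 and 431 in Runx1-WT mice. Every Runx1-null mouse lay below every Runx1-WT mouse on both. The annotation assigns both to the same source sequence, so they are not separate evidence. The remaining Igfbp4 probe sets also share source sequences in pairs, so all 6 are not 6 separate observations. The log2 differences were -0.55 (standard error 0.25, 95% interval -1.15 to 0.05) and -0.48 (standard error 0.24, 95% interval -1.05 to 0.09), and neither passed limma's test over the whole table (exact permutation test, p = 0.1 for each, the smallest possible). The brightest probe set, 1423757_x_at, overlapped, at 405, 589 and 407 in Runx1-null mice, against 616, 489 and 555 in Runx1-WT mice, and its log2 difference was -0.26 (standard error 0.24). Leaving out Runx1-null mouse 2 gave -0.44, and leaving out Runx1-null mouse 1 or mouse 3 gave -0.17. Over the 6 probe sets the difference ran from -0.55 to -0.10, and all 6 were below 0 in both ranges of animal numbers. The probe set nearest 0, 1421991_a_at, was at 0.056 without Runx1-null mouse 1 and at 0.0047 after quantile normalization.

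Igfbp7 encodes a secreted relative of the IGFBPs with low affinity for IGFs that is abundant in vascular cells. On its brightest probe set, 1423584_at, it was at 1602, 1759 and 1964 in Runx1-null mice, against 2464, 1768 and 3232 in Runx1-WT mice. Only Runx1-WT mouse 2 fell within the range of the Runx1-null mice. The mean was 1775 ± 182 in Runx1-null and 2488 ± 732 in Runx1-WT cells (SD, n = 3 each), a log2 difference of -0.45 (standard error 0.23, 95% interval -1.01 to 0.11; exact permutation test, p = 0.2). The difference was -0.24 without Runx1-WT mouse 3, while leaving out Runx1-WT mouse 2 gave -0.67. Its other probe sets gave -0.26 and -0.25, and all 3 were below 0 in both ranges of animal numbers.

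Igfbp2, a binding protein with a preference for IGF2, was too dim to be tested. Its single probe set was at 38.0, 61.2 and 25.6 in Runx1-null mice, against 62.3, 62.4 and 75.9 in Runx1-WT mice. The groups did not overlap, though Runx1-null mouse 2 lay only just under the lowest Runx1-WT mouse. The shares of non-overlapping probe sets given above cover tested probe sets only, so this one has no share to stand beside. The log2 difference was -0.77. With no filter on intensity limma gave an unadjusted p = 0.082 and an adjusted p of 1.

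Igfbp5 was bright on every array and close in the genotypes. On 1452114_s_at it was at 8187, 10470 and 11566 in Runx1-null mice, against 10638, 10117 and 8277 in Runx1-WT mice. Runx1-null mouse 1 and Runx1-WT mouse 3 were lowest, also on its other probe set. The log2 differences of the 2 probe sets were 0.05 (95% interval -0.30 to 0.40) and -0.07 (95% interval -0.55 to 0.41), so changes beyond about 0.6 in either direction fall outside both intervals.

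Igfbp3, which encodes the main carrier of IGFs in serum, varied among mice of each genotype. It was at 169, 390 and 106 in Runx1-null mice on 1423062_at, against 193, 150 and 353 in Runx1-WT mice. Runx1-null mouse 2 and Runx1-WT mouse 3 were highest in their groups, as for Igf1. The log2 difference was -0.18 (standard error 0.55; exact permutation test, p = 0.8), and its sign turned when a single mouse was left out, to 0.17 without Runx1-WT mouse 3 or 0.24 without Runx1-null mouse 3. Igfbp6, an inhibitor with a preference for IGF2, was at 197, 375 and 215 in Runx1-null mice, against 451, 370 and 217 in Runx1-WT mice. Its values overlapped, and the log2 difference was -0.40 (standard error 0.39; exact permutation test, p = 0.4). Leaving out mouse 1 of either genotype brought it to -0.22 (Runx1-null) or -0.17 (Runx1-WT), whereas it was -0.68 with Runx1-null mouse 2 left out and -0.70 with Runx1-WT mouse 3 left out.

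**Figure D2:**
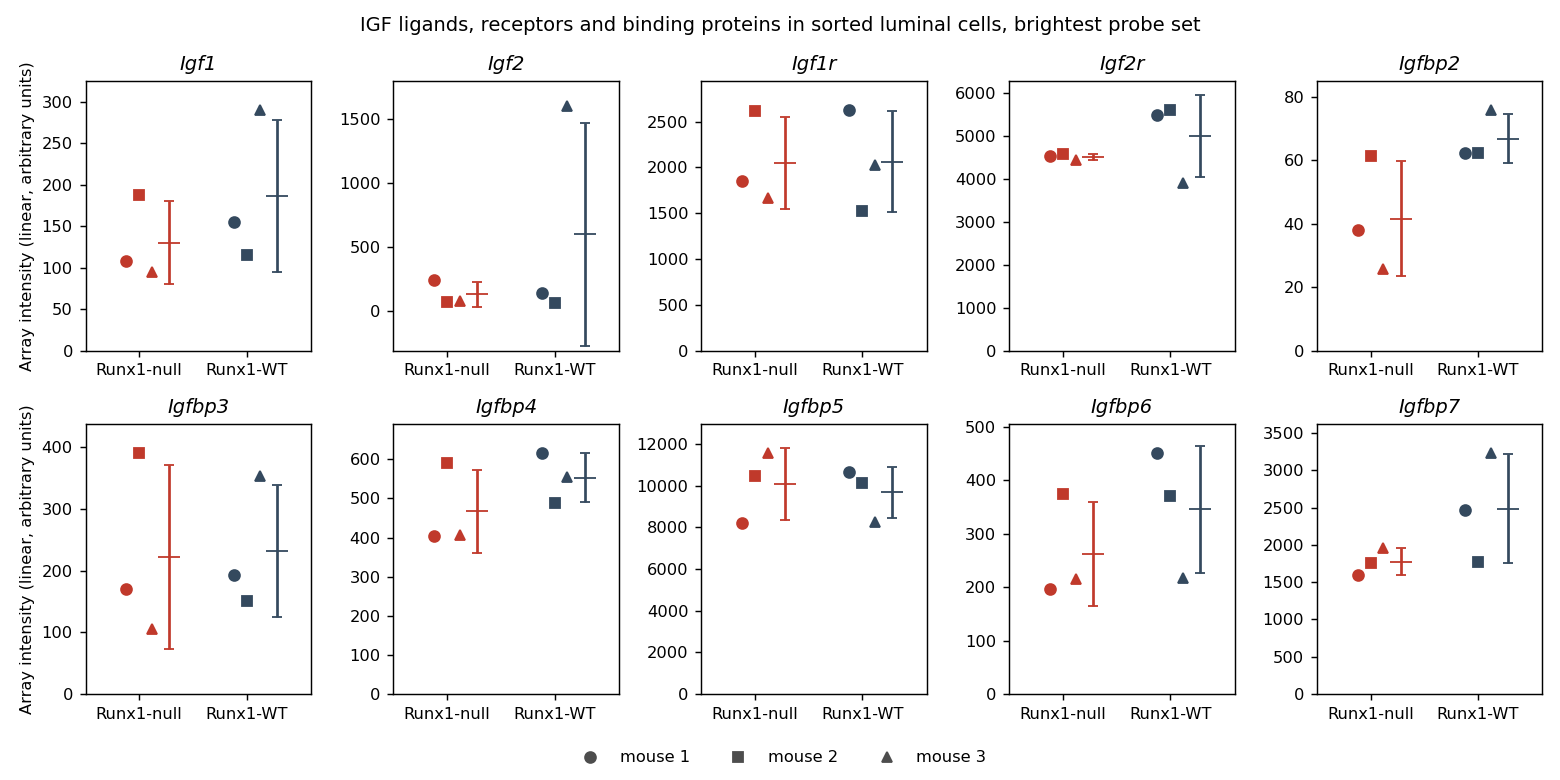
Linear array intensity of the brightest probe set of each gene in each mouse (points, shape by mouse) for Runx1-null (left) and Runx1-WT (right), with the mean and SD of 3 mice beside them (bars), each panel on its own scale. Igf2 lies above 243 only in Runx1-WT mouse 3, at 1606. Igfbp2, which was below the intensity filter, is the only panel in which the genotypes do not overlap, at 25.6 to 61.2 against 62.3 to 75.9.

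Mice differed in the IGF genes in ways that crossed the genotypes. The median deviation of the 23 tested members from their mean over the 6 mice was -0.32, 0.15 and -0.14 on the log2 scale in Runx1-null mice 1 to 3, against 0.11, -0.08 and 0.32 in Runx1-WT mice 1 to 3. Runx1-WT mouse 3 was highest and Runx1-null mouse 1 lowest. Leaving out each mouse in turn, the members' median log2 difference ran from -0.43 (without Runx1-null mouse 2) to -0.10 (without Runx1-WT mouse 3), and it was -0.17 without Runx1-null mouse 1. Within the lower range of animal numbers it was -0.16 and between the 2 mice of the upper range -0.45. The sign was opposite in the 2 ranges for 12 of the 23 members (52.2%), where this held for 64.2% of all tested probe sets. By the brightest probe set, Igfbp2, Igfbp4 and Igfbp7 were below 0 in both ranges. Igfbp6 was at -0.59 in the lower range and -0.012, in effect 0, in the upper. Igf1, Igf2, Igf1r and Igfbp3 were above 0 in the lower range and below 0 in the upper, and Igf2r and Igfbp5 the reverse.

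**Figure D3:**
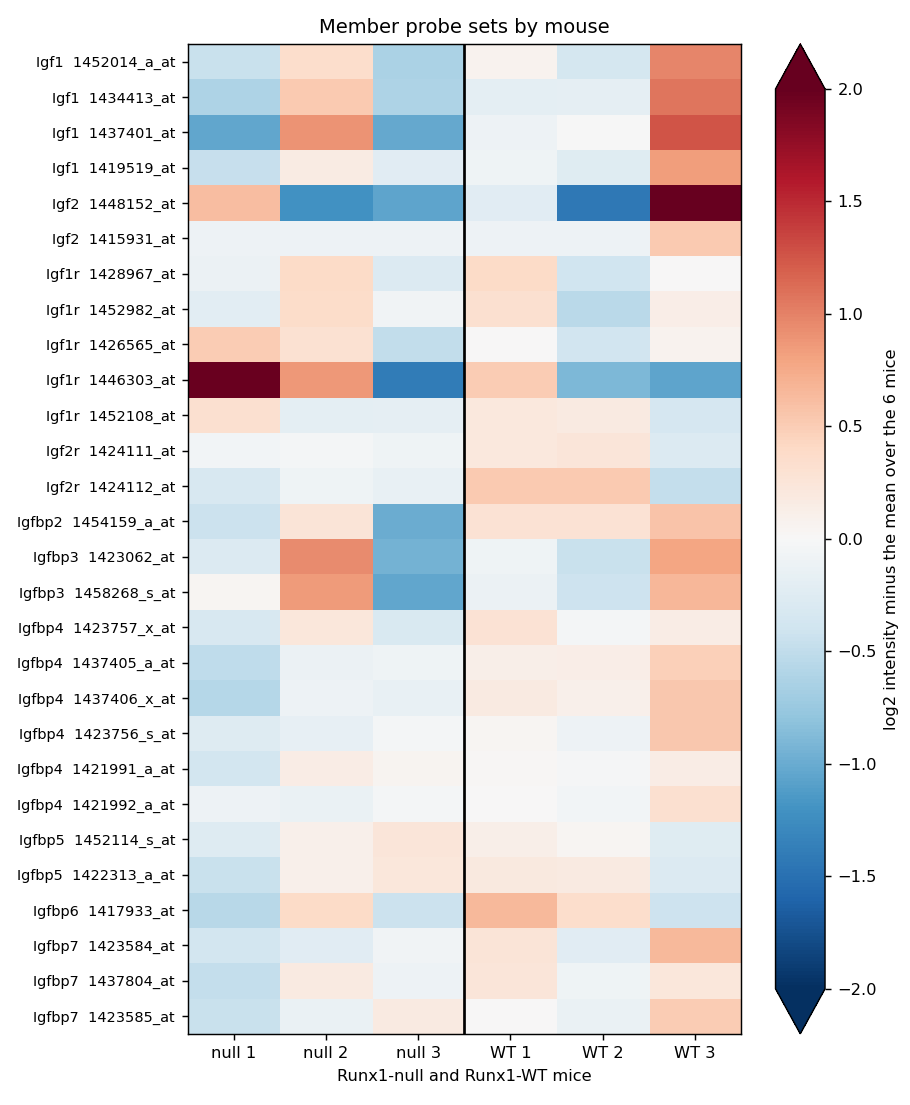
Log2 intensity of each member probe set in each mouse, minus its mean over the 6 mice (color, saturated beyond 2 in either direction), with Runx1-null mice left of the line and Runx1-WT mice right of it. Runx1-WT mouse 3 is the highest mouse on every Igf1 and Igf2 probe set, while Igfbp5 and Igf2r are low in that mouse.

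**Figure D4:**
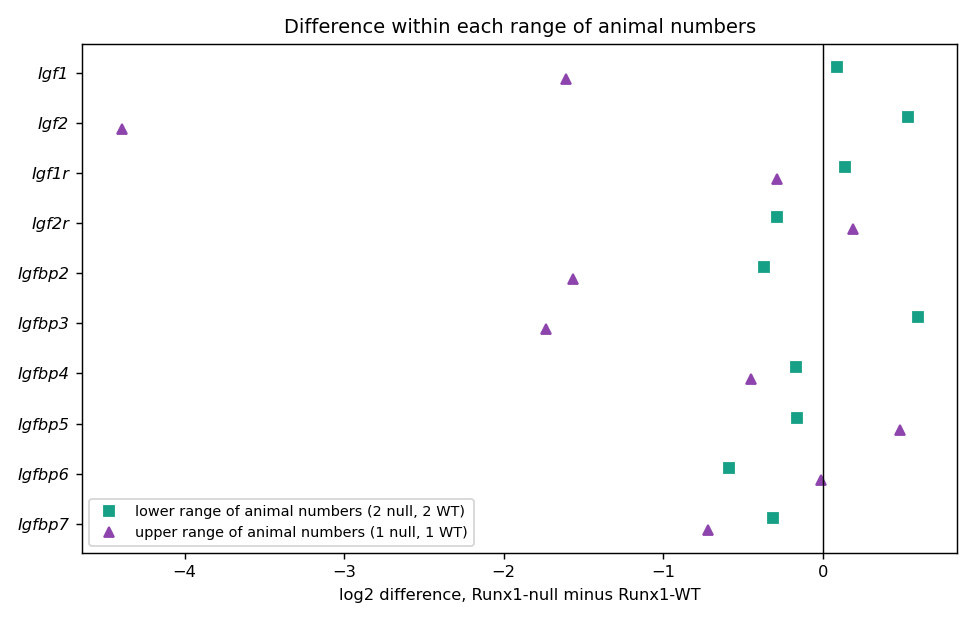
Log2 difference (Runx1-null minus Runx1-WT) of the brightest probe set of each gene within the lower range of animal numbers (squares, 2 mice of each genotype) and the upper range (triangles, 1 mouse of each, no test). Igf2 is at 0.53 and -4.40 in these ranges, whereas Igfbp7 is at -0.31 and -0.72.

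Igf2 had the widest range over the mice of the 10 genes, 4.77 on the log2 scale, and the genes most like it were sought among 12152 genes that passed the filter, by the root mean square difference of log2 values centered over the 6 mice. The nearest 5 were Tox, at 0.34, Atp7b, Wfdc12, Nalcn and Tnfrsf11b, at 0.56. Tox, a nuclear factor best known from T cells, was at 65.4, 24.0 and 18.4 in Runx1-null mice, against 35.1, 25.2 and 330.1 in Runx1-WT mice. Tnfrsf11b, which encodes osteoprotegerin, the decoy receptor for RANKL, was at 94.6, 24.0 and 8.28 in Runx1-null mice, against 26.6, 33.5 and 308 in Runx1-WT mice. All 5 were highest in Runx1-WT mouse 3 and next in Runx1-null mouse 1, as Igf2 was. They were picked for likeness to Igf2, so this order is no separate observation. For Igf1 and Igfbp5, chosen for this search after their values were seen, the nearest genes were Ankrd22 (0.16) and Slc15a2 (0.17), and Kremen1 (0.04) and Il17ra (0.04). Ctsl, which encodes the lysosomal protease cathepsin L, was also among the 5 nearest to Igfbp5, at 4417, 5968 and 6653 in Runx1-null mice, against 5848, 5489 and 4761 in Runx1-WT mice. These distances rest on 6 arrays and describe likeness only.

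No further gene of IGF signalling passed the test. Of 36 such genes, 31 had a probe set of their own and 28 passed the filter, with 10 log2 differences above 0 and 18 below (median -0.10). Limma called 0 of the 28, and 0 had an unadjusted p under 0.05. Grb14, an adaptor that inhibits the insulin receptor kinase, had the smallest unadjusted p, at 308, 479 and 428 in Runx1-null mice, against 753, 932 and 422 in Runx1-WT mice (log2 difference -0.74, standard error 0.35). Runx1-WT mouse 3 lay within the Runx1-null mice, and the difference was -1.12 between mice of the lower animal numbers and 0.02 between those of the upper. The adaptor gene Grb2 was the only 1 of the 28 whose groups did not overlap, at 3543, 4232 and 3971 in Runx1-null mice, against 4423, 4243 and 4303 in Runx1-WT mice, a log2 difference of -0.15 (standard error 0.09), where 4.84% of all tested probe sets did not overlap. The transcription factor gene Foxo1, whose product AKT holds out of the nucleus, had a log2 difference of -0.25 (standard error 0.20). On the other side, Ghr, the growth hormone receptor, Irs1, the docking protein of IGF1R, and Mtor, the growth kinase, had log2 differences of 0.13 (standard error 0.12), 0.24 (standard error 0.23) and 0.15 (standard error 0.18), and all overlapped. The insulin receptor gene Insr resembled Igf2r, at 1468, 1808 and 1578 in Runx1-null mice, against 2435, 2117 and 1336 in Runx1-WT mice. Insr was chosen after its values were seen.

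Several family members are also made by stromal and vascular cells, and markers of those cells differed between the mice. Fewer cells of a type and less RNA per cell cannot be told apart in sorted bulk RNA. Of 17 matched stromal markers, 16 had log2 differences below 0 (median -0.47). Their summed intensity was 17909, 20047 and 12457 in Runx1-null mice 1 to 3, against 23643, 22179 and 21491 in Runx1-WT mice 1 to 3. Runx1-null mouse 3, the lowest here, also had the lowest median intensity of all arrays. Col1a1, the fibroblast collagen gene, was at 2339, 2278 and 709 in Runx1-null mice, against 2489, 1984 and 2896 in Runx1-WT mice, and Pdgfra, a fibroblast receptor gene, overlapped too. Groups did not overlap for 5 of the 17, Col5a2, Col6a1, Sparc, Fap and Postn, named after their values were seen and all lower in Runx1-null mice, where this held for 3.06% of all tested probe sets. Postn, which encodes the matrix protein periostin, was at 1433, 927 and 467 in Runx1-null mice, against 1870, 1639 and 2054 in Runx1-WT mice (log2 difference -1.11, standard error 0.40). In the lower and upper ranges of animal numbers, Col1a1 was at 0.06 and -2.03. Col5a2 was at -0.24 and -1.60, Col6a1 at -0.27 and -0.80 and Sparc at -0.18 and -1.04. Postn was at -0.60 and -2.14, and Fap at -0.61 and -0.48. The part of Runx1-null mouse 3 in the stromal differences was not tested. All 10 endothelial markers that passed the filter were below 0, 2 of them (Kdr and Tek, also named after their values were seen) with groups that did not overlap, with a summed intensity over 12 markers of 1663 to 2227 in Runx1-null mice, against 2336 to 2957 in Runx1-WT mice, though their defining marker Pecam1 was dim and overlapped, at 82.1 to 132 in Runx1-null and 82.7 to 136 in Runx1-WT mice. In the lower range of animal numbers the endothelial markers Flt1, Egfl7 and Eng were below 0 and in the upper above 0. Pecam1 went the reverse way, and Kdr and Tek were below 0 in both. Flt1, Egfl7 and Eng were named after their values were seen. Limma called 0 stromal and 0 endothelial markers. Igfbp2 and 2 probe sets of Igfbp4 were likewise lower in every Runx1-null mouse. Any measures whose groups do not overlap share this split, so it does not link them. Among Runx1-null mice, the stromal sum and Igfbp2 were lowest in mouse 3. The endothelial sum and both of these Igfbp4 probe sets were lowest in mouse 1. The part of stromal and vascular cells in the IGF values was not tested. The summed leukocyte markers were at 819 to 1494 in Runx1-null mice and at 995 and 1070 in Runx1-WT mice 1 and 2, but at 4729 in Runx1-WT mouse 3, the mouse with the highest Igf1 and Igf2. Ptprc, the pan-leukocyte marker CD45, was at 205 in that mouse and 18.3 to 47.4 in the others, although the sort removed lineage-positive cells. Ptprc was below the intensity filter. Of the 7 leukocyte markers that passed it, 6 were below 0 and 1, Csf1r, above 0 (median -0.41). Csf1r was lowest in Runx1-WT mouse 3, at 155, and Itgam was below the floor there, at 12.8. Csf1r and Itgam were named after their values were seen. The part of leukocytes in the Igf1 and Igf2 values was not tested.

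**Figure D5:**
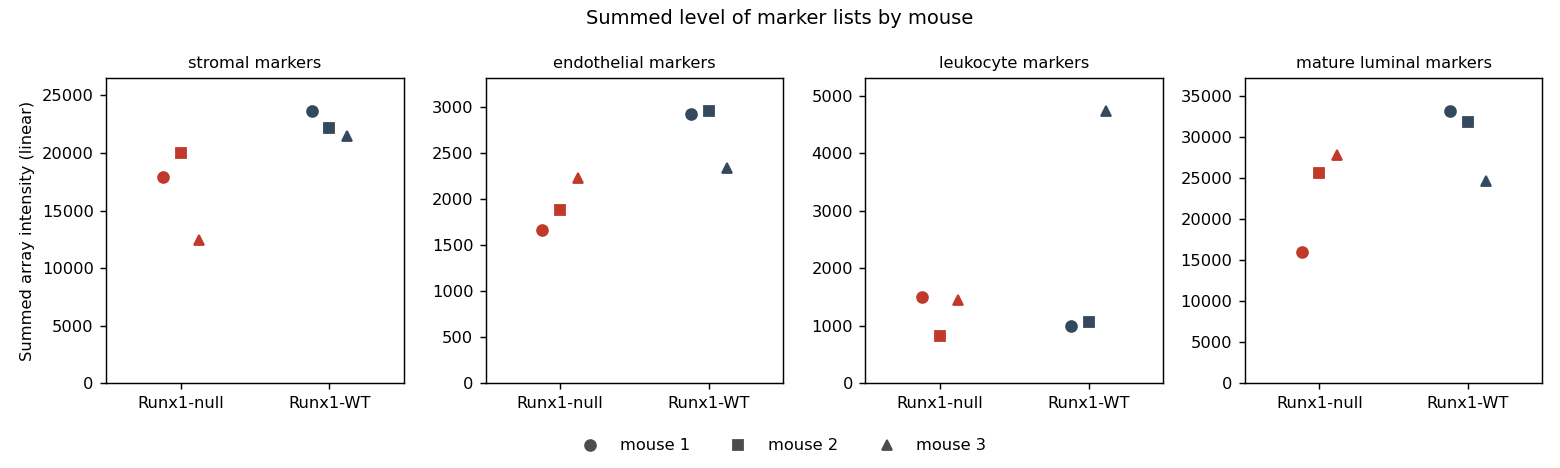
Summed linear intensity of stromal (17 genes), endothelial (12 genes), leukocyte (11 genes) and mature luminal (7 genes) markers in each mouse, Runx1-null left and Runx1-WT right, each panel on its own scale. Stromal and endothelial sums do not overlap between the genotypes, and the leukocyte sum stands out in Runx1-WT mouse 3, at 4729.

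Of 7 mature luminal markers, 6 had log2 differences below 0 (median -0.19). Cited1, Wnt4 and Foxa1 were at -1.17, -0.93 and -0.31 (limma unadjusted p = 0.025, 0.027 and 0.047), and Pgr above 0, at 0.14. On these arrays the paper reports a luminal progenitor signature enriched and a mature luminal signature lower in Runx1-null cells. By flow cytometry it found the YFP+ mature luminal fraction significantly reduced in such mutants. The markers also varied among the mice. The sum of 7 markers of ER-positive mature luminal cells was 16062, 25625 and 27918 in Runx1-null mice, against 33208, 31852 and 24665 in Runx1-WT mice. Runx1-null mouse 1 and Runx1-WT mouse 3 were lowest, the same 2 mice in which Igfbp5 was lowest on both probe sets, but only Esr1, Pgr and Prom1 of the 7 markers had that order. Foxa1 and Wnt4 were lowest in Runx1-null mice 1 and 2 and Cited1 in Runx1-null mice 3 and 1. Wnt4 was the marker whose groups did not overlap, at 552, 717 and 1336 in Runx1-null mice, against 1592, 1526 and 1498 in Runx1-WT mice. Tnfsf11, which encodes RANKL, was at 337, 134 and 28.8 in Runx1-null mice, against 9.67, 6.87 and 4980 in Runx1-WT mice, and so was highest in Runx1-WT mouse 3. These markers were named after their values were seen, and limma called 0 of the 7. In the lower and upper ranges of animal numbers, Esr1 was at -0.64 and 0.82, Pgr at -0.45 and 1.31 and Prom1 at -0.97 and 1.38. Foxa1 was at -0.51 and 0.08, and Tnfsf11 at 3.46 and -7.44. Cited1 (-0.92 and -1.67) and Wnt4 (-1.31 and -0.17) were below 0 in both. Whether the mixture of luminal cells had a part in the IGF values was not tested. Basal markers did not separate the genotypes, at summed intensities of 7301 to 16540 in Runx1-null and 8282 to 16794 in Runx1-WT mice. Adipocyte markers summed to 2778 to 4004 in Runx1-null and 4000 to 4690 in Runx1-WT mice. Adipoq, their defining gene, reached no more than 27.7 in Runx1-null and 46.6 in Runx1-WT mice. All 4 adipocyte markers that passed the filter were below 0 (median -0.27), and limma called 0. Lpl, named after its values were seen, did not overlap, at 430, 612 and 422 in Runx1-null mice, against 865, 655 and 1070 in Runx1-WT mice. Of all tested probe sets, 3.06% were lower without overlap. Luminal progenitor markers summed to 26001 to 35612 in Runx1-null and 24817 to 31489 in Runx1-WT mice. Of the 8, 5 were above 0 and 3 below (median 0.15), and limma called 0. The part of these lists was not tested either.

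Since RUNX proteins bind DNA at a short core, the promoter windows of the members were searched for its letters. RefSeq windows on GRCm38.p6, from 250 bases before to 50 after a transcription start, were found for all 10 genes, 14 windows in all. They were searched on both strands for TGTGGT and TGCGGT, read as ACCACA and ACCGCA on the opposite strand. Either core stood in 22.4% of all 32851 windows and in 2 of the 14 member windows, 1 of Igfbp3 and 1 of the 4 of Igf2. Both are printed here with the match in capitals, beside the window of Igfbp4, the only tested gene of the family with probe sets whose groups did not overlap, which holds neither. The letters mark a sequence match and not a bound site, and their absence from a window says nothing about RUNX1 elsewhere in the gene.
Igfbp3 (chr11:7213874-7214173, strand minus): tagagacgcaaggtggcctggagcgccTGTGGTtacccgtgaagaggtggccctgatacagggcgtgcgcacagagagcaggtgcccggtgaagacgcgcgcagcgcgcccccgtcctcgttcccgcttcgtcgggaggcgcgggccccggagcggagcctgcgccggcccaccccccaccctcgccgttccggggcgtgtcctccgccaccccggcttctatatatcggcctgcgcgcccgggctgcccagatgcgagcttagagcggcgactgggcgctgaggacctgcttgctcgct
Igf2 (chr7:142661222-142661521, strand minus): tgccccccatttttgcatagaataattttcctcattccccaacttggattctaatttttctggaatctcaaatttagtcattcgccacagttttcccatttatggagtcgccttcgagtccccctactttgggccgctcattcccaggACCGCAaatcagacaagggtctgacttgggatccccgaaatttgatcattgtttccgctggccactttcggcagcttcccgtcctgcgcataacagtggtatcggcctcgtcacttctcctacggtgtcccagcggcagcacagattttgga
Igfbp4 (chr11:99040994-99041293, strand plus): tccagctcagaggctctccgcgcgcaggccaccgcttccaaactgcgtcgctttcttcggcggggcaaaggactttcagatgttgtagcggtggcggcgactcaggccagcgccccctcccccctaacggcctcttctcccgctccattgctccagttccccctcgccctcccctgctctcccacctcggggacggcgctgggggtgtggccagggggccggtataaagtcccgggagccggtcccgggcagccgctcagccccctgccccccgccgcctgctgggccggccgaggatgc
The match in Igfbp3 (TGTGGT) begins 223 bases before the start site and that in Igf2 (ACCGCA) 102 bases before it. Igfbp3 was among the members whose groups overlapped on both probe sets, and Igf2 was the gene whose level rested on Runx1-WT mouse 3.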

How the data were processed

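RNA of YFP+ luminal cells from 3 Runx1-null and 3 Runx1-WT mice was measured on Affymetrix Mouse Genome 430 2.0 arrays after NuGEN Ovation amplification. The deposited table holds linear intensity values, normalized by the authors with dChip (version and model not given in the sources used here), for 45101 probe sets. Of these, 34958 were paired with 1 gene symbol by the platform annotation, 932 with several and 9211 were unnamed here. No counts exist for arrays, so their number limits the precision.

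Before log2, values were floored at the 20th percentile of the whole table (19.3). Probe sets whose mean reached the 40th percentile (73.5) entered limma 3.58.1 in R 4.3.3 (lmFit and eBayes with trend, Benjamini-Hochberg over 27061 probe sets). Single probe sets were also given exact permutation tests, two-sided. The code was tested on simulated data. Where 1 value per gene was needed, the brightest probe set was taken. Members, gene lists, markers and tests were chosen with earlier results of these data known. Named were all members, Runx1, the defining markers, the 3 higher and 3 lower pathway genes with the smallest unadjusted p, and the 5 genes nearest to the member of widest range. Other genes were named after their values were seen, as the text says where it names them. Of the 36 pathway genes, 5 had no probe set of their own here. The methods speak of littermates, but the labels do not give the litters, so no pairing could be fitted. Alternatives were another or no filter, quantile normalization, median scaling, a pseudocount of 5.04, genes in place of probe sets, animal number ranges as a block or taken separately, leaving out each mouse, no variance trend and the test named in the methods.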

Additional observations from a re-analysis of the deposited data

How the results depend on the processing

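Limma called 0 probe sets over the whole table and 0 members under every filter, normalization, floor, block and variance setting run, and without each mouse, and it called 0 of the other pathway genes after quantile normalization or median scaling. The test named in the methods gave 614 probe sets at an unadjusted p under 0.05, 0 of them members, and 0 after adjustment. In some other limma fits members, all lower in Runx1-null mice, had an unadjusted p under 0.05. These were 1 Igfbp4 probe set with no filter (1047 of all 45101) and 2 with no variance trend (474 of all 27061). Ranges as a block gave 2, of Igfbp4 and Igfbp7 (599 of all). Dropping a control array gave 1 of Igfbp7 (331 of all, mouse 2) or 2 of Igf2r (1341 of all, mouse 3). The lower range gave the same 2 (3072 of all). The members' median was -0.26 in the reported fit, -0.19 after quantile normalization, -0.17 after median scaling and -0.43 to -0.10 without each mouse. Igf1r, near 0, was at 0.027 after quantile normalization and 0.088 after median scaling. In the lower range of animal numbers Igf1 was at 0.090, Igf2 at 0.53, Igf1r at 0.14, Igfbp3 at 0.60 and Igfbp5 at -0.16, all opposite to the pooled sign, and in the upper range Igf2r was at 0.19. Without each mouse, Igf2 ran from -2.11 to 0.28, Igf1r from -0.20 to 0.19, Igfbp3 from -0.70 to 0.24 and Igfbp5 from -0.057 to 0.19, and the brightest probe sets of the other tested genes kept their sign. The cause of these changes was not tested. No paired analysis was possible because the labels give no shared replicate numbers. With 3 mice a genotype, the intervals of the dim genes Igf1, Igf2 and Igfbp3 include changes of over 1 on the log2 scale. Those of Igfbp6 (-1.32 to 0.52) and of the brightest Igfbp7 probe set (-1.01 to 0.11) do so as well. Intervals of single probe sets of Igf1r (up to 1.01), Igf2r (down to -1.14) and Igfbp4 (down to -1.15) also pass 1.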
